A study of Homo sapiens with 4 samples.

Results

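Focal peaks are short stretches of a tiled region in which the HA precipitate of RPF-1-induced cells exceeded that of uninduced cells in every array, although the region as a whole stayed near the array average. They were chosen from the ratios themselves. After each array was centred on its median, a region entered when at least 1 run of 5 consecutive single-match probes averaged a log2 ratio of 0.6 or more in each of 4 arrays, while the mean of all its single-match probes over the arrays was below 0.3. Single-match probes are those whose count field in the files is 1, read here as probes that match 1 place in the genome. Of 18028 design regions, 16166 lay on chromosomes 1 to 22 with at least 10 such probes, and 904 of these (5.59%) held such a run. The limit on the region mean left 463 (2.86%), the focal peaks. Because these ratios chose the regions, heights are given as descriptions, with no test of their difference from 0.

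The 4 arrays are two-colour ChIP-chip hybridisations from HEK293/RPF-1 cells. These are stable transfectants, made from the human embryonic kidney line HEK293, that express HA-tagged RPF-1 when tetracycline is left out. On each array, anti-HA chromatin of cells grown 48 h in tetracycline-depleted medium (Tet-, Cy5) was compared with anti-HA chromatin of the same stable line grown 48 h with tetracycline (Tet+, Cy3). Per the labels' protocols, both were fixed with 1% formaldehyde and sheared to an average of 500 bp. Array 1 carries no preparation numbers, and the labels of arrays 2, 3 and 4 name Tet4- against Tet3+, Tet10- against Tet7+ and Tet13- against Tet9+. The same dye marked induced cells on every array, and the labels do not say whether the stable line is 1 clone. They also do not say whether each preparation had its own culture, so the SD over arrays may be technical. Each array held 386230 probes, and the ratios had standard deviations of 0.698 to 0.752 log2.

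RPF-1 is read here as the retina-derived POU-domain factor of that name, which the labels do not spell out. POU factors carry a POU-specific domain and a homeodomain that together contact short, AT-rich DNA, and they act in the development of neural and other tissues. In ChIP-chip, DNA that is crosslinked to the tagged factor is recovered in fragments longer than the binding site, so a single site is usually read by several neighbouring probes. The genome build of the files is not given in the sources used here. Peaks are therefore given by the files' own coordinates, counted from 1, without gene names or sequences.

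The highest focal peak lay on chromosome 12, positions 94136771 to 94137226, in the region named 94134871 to 94137571. Its 5 probes averaged 1.71, 0.86, 1.94 and 1.31 log2 in arrays 1 to 4, a mean of 1.45 ± 0.48 (SD, n = 4) or 2.74-fold. The other 18 probes of the region averaged -0.23 ± 0.09. That the rest of a region lies below its run is set by the rule. The 5 probe means ran from 0.93 to 1.71, and 19 of the 20 single values in the run were above 0. The core ended at the last probe of the region, so its far side was not tiled.

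On chromosome 19, positions 47479156 to 47479605, the arrays gave 2.00, 1.56, 0.83 and 1.12 (1.38 ± 0.51), with the rest of the region at -0.04 ± 0.24. This peak lay 924 bp inside the region, and all 20 values of the run were above 0. On chromosome 6, positions 90405789 to 90406239, they gave 1.26, 0.65, 2.00 and 1.504 (1.36 ± 0.56). Array 2 was the lowest there and array 3 the highest, as on chromosome 12. The rest of that region lay at -0.29 ± 0.04.

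On chromosome 10, the run from 94039699 to 94040148 gave 1.66, 0.71, 1.89 and 1.13 (1.35 ± 0.53) within a core of 8 probes. On chromosome 3, the run from 87408127 to 87408579 gave 0.94, 1.14, 2.44 and 0.85 (1.34 ± 0.74). Array 3 stood more than 1 log2 above the others at this peak, which had the widest spread of all 463. The remaining 15 probes of that region averaged -0.56 ± 0.38, so the whole region had a mean of only -0.03. Array 3 was the highest there too, with -0.63, -0.95, -0.04 and -0.61 outside the core in arrays 1 to 4. The region mean in array 3 alone was 0.60. A further peak on chromosome 10, from 116569672 to 116570933, gave 1.27, 0.63, 2.05 and 1.41 (1.34 ± 0.59). Its 5 probes span 1262 bp because 800 bp separate the starts of 2 of them, and the sequence between was not measured.

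The run on chromosome 19 from 59666906 to 59667458 gave 1.49, 0.88, 0.94 and 2.05 (1.34 ± 0.55). That on chromosome 3 from 171556607 to 171557056 gave 1.66, 0.94, 0.75 and 1.86 (1.30 ± 0.54), with probe means from 0.36 to 1.86. Arrays 1 and 4 were the high arrays at both. The peak on chromosome 11 from 34082024 to 34082480 was the most even of the 12 highest, with 1.29, 1.51, 1.14 and 1.23 (1.29 ± 0.16). Its 5 probe means lay between 1.202 and 1.478, and with the highest probe left out the other 4 still averaged at least 1.08 in every array, more than in any other focal peak.

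The last of the 12 lay on chromosomes 11, 6 and 13. The run on chromosome 11 from 31789034 to 31789483 gave 1.96, 0.77, 0.90 and 1.54 (1.29 ± 0.56). The run on chromosome 6 from 153366040 to 153366494 gave 1.72, 0.64, 1.77 and 1.03 (1.29 ± 0.55). The run on chromosome 13 from 78879526 to 78880085 gave 1.63, 1.16, 1.63 and 0.70 (1.28 ± 0.45). In each, the highest array exceeded the lowest by more than 0.9 log2, while the rest of the region lay below 0, at -0.17 ± 0.05, -0.47 ± 0.29 and -0.21 ± 0.12. The lowest array was array 2 in the first pair and array 4 on chromosome 13.

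**Figure D1:**
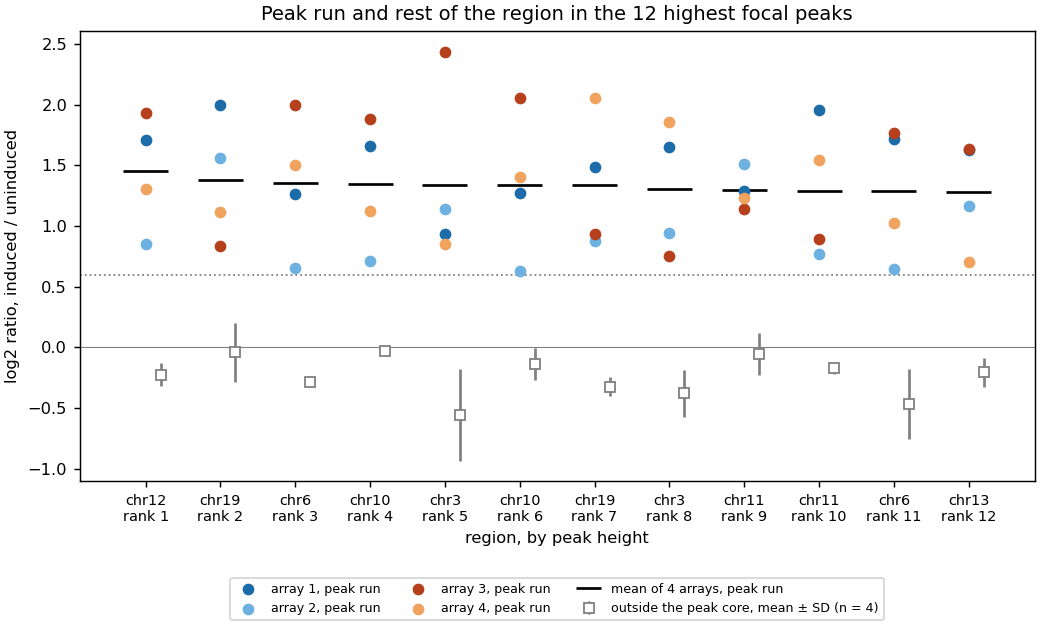
Mean log2 ratio (y axis) of the highest run of 5 probes in each of the 4 arrays (coloured points; black line, their mean) for the 12 highest focal peaks (x axis, by chromosome and rank), with the mean ± SD of the probes outside the core (open squares, n = 4 arrays). Every point lies above the dotted line at 0.6, as the rule required, and every square lies below 0, from -0.56 to -0.03.

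**Figure D2:**
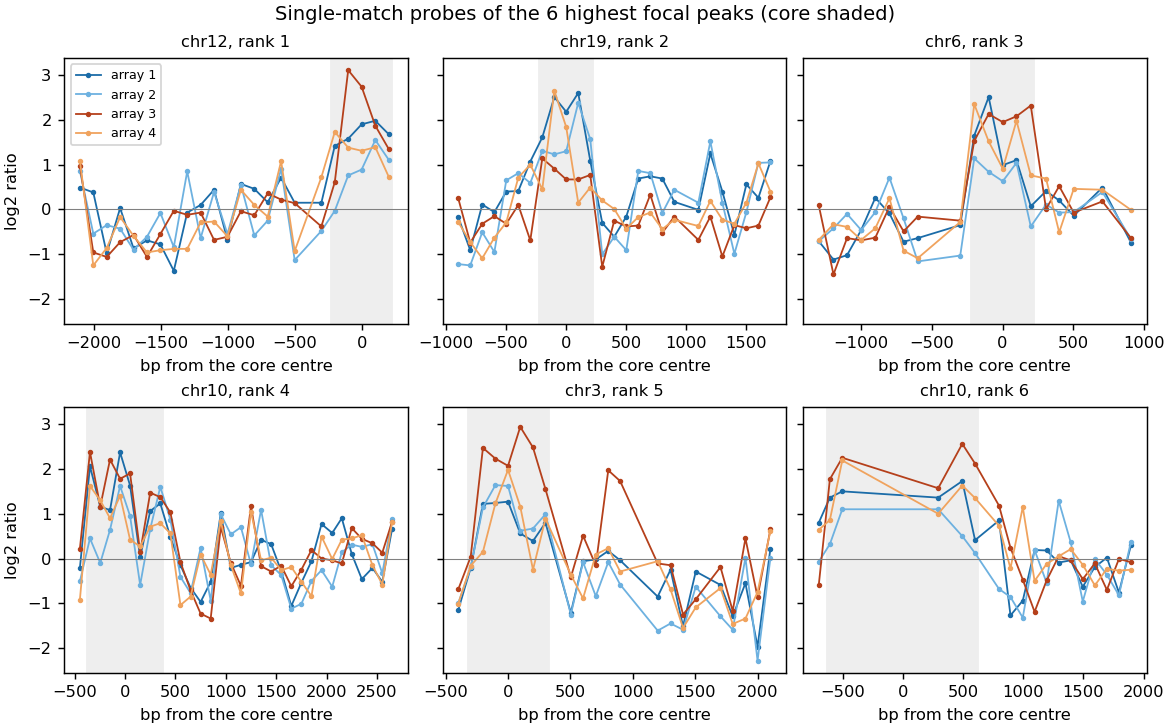
Log2 ratio of every single-match probe (y axis) against its distance from the core centre in bp (x axis) in the 6 highest focal peaks, 1 line per array, with the core shaded. The peak on chromosome 12 ends at the last probe of its region, and the core of rank 6 contains a stretch of 800 bp without single-match probes.

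Over all 463 regions, peak height (the 4-array mean of the highest run) ranged from 0.65 to 1.45 log2 with a median of 0.88, and 103 peaks reached 1.0 or more. The SD over the 4 arrays had a median of 0.19 and ranged from 0.01 to 0.74. Median heights were 0.92, 0.82, 0.89 and 0.78 in arrays 1 to 4. Array 1 was the highest array at 159 peaks and array 4 the lowest at 144. Arrays 1 and 2, whose file names carry the series N39, both exceeded arrays 3 and 4 of series N44 at 96 peaks, and the reverse held at 49. The probes outside the core had median levels of -0.07, -0.09, -0.05 and -0.09 in the 4 arrays, and in 306 regions (66.1%) their mean was below 0. Over all eligible regions the median of the region mean was itself -0.02. The limit on the region mean also bears on the level outside the core.

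The smallest spreads came with low heights. On chromosome 4, positions 89517414 to 89517870, the arrays gave 0.66, 0.65, 0.66 and 0.66 (0.66 ± 0.01). On chromosome 11, positions 65861676 to 65862125, they gave 0.64, 0.65, 0.66 and 0.62 (0.65 ± 0.02), the lowest mean of all. The third, on chromosome 6 from 10663334 to 10663796, had 0.69 ± 0.02, and the fourth, on chromosome 5 from 138753201 to 138753750, had 0.67 ± 0.03. Since every array must reach 0.6, a run with a mean just above 0.6 can only have a small spread, so these 4 are set partly by the rule. A small spread also occurred at greater height, as in the chromosome 8 core from 104493917 (1.03 ± 0.06).

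The regions were flat in their mean and not probe by probe. Outside the core, the SD of the 4-array probe means within a region had a median of 0.539 log2, against 0.533 over the whole of the regions that were no focal peaks. A region held a median of 2 probes of 0.6 or more outside its core, and 72 of 463 (15.6%) held none. In 38 regions the mean of all probes was itself below 0. The lowest was on chromosome 4, where a run at 0.95, 1.05, 1.00 and 0.63 (0.91 ± 0.19; core 141663501 to 141664160) stood among 17 other probes at -0.62 ± 0.14. The next were on chromosome 8, with a core from 82915533 to 82916387 at 0.97 ± 0.34 and a region mean of -0.21, on chromosome 3, from 151747563 to 151748017 at 0.85 ± 0.24 (region mean -0.15), and on chromosome 10, from 96114173 to 96114622 at 0.75 ± 0.11 (region mean -0.14). Membership depended on the level of the region: when each region's own median was subtracted in each array, 458 regions met the rule, and 159 of the 463 focal peaks (34.3%) were among them. A 5-probe run at -0.6 or less in every array was also present in 23 of the 463 regions (4.97%), where 6.65% of all eligible regions had one.

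Peak width was measured as the core, the union of overlapping runs that met the threshold, which is 5 probes at the least. The core had a median width of 551 bp, with quartiles of 453 and 715 bp and a range from 450 to 2050 bp. It was exactly 5 probes in 286 regions (61.8%), 6 probes in 92, 7 in 55 and 8 or more in 30 (6.48%). Width at 0.5 of the peak height, measured above the region median on the 4-array mean smoothed over 3 probes, had a median of 450 bp with quartiles of 350 and 554 bp. The sheared chromatin had a stated average of 500 bp, but neither median can be read against it. The minimum of 5 probes sets the lower end of the core width, and the other width was measured around the chosen run. With runs of 7 probes, 139 regions met the rule and the median core was 760 bp.

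The 4 widest cores owed their width to gaps between probes. They lay on chromosome 19 from 10074625 to 10076674 (2050 bp, 0.86 ± 0.16), on chromosome 5 from 177488533 to 177490315 (1783 bp, 0.80 ± 0.14), on chromosome 15 from 57182611 to 57184368 (1758 bp, 0.85 ± 0.07) and on chromosome 7 from 98902144 to 98903793 (1650 bp, 0.77 ± 0.19). They held only 7, 6, 5 and 5 probes, and the largest steps between probe starts in their highest runs were 1400, 1033, 1300 and 700 bp. Steps over 200 bp occurred in the highest run of 78 focal peaks (16.8%) and in 18.8% of all 279073 runs of eligible regions.

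Regions that met the run threshold but had a mean of 0.3 or more, 441 in number, had wider cores, with a median of 659 bp, and 113 of them (25.6%) had cores of 8 or more probes. Their heights had a median of 0.99 log2 and the probes outside their cores a median of 0.22. The limit on the region mean separates these groups and bears on all 3 measures, so the difference was not tested. At the limit itself, the focal peaks on chromosome 2 (172458479 to 172458928, 0.84 ± 0.15), chromosome 12 (24608153 to 24608706, 1.04 ± 0.24) and chromosome 11 (303652 to 304101, 0.89 ± 0.27) had region means just under 0.3. Just above it were runs on chromosome 3 (114717793 to 114718242, mean 0.80), chromosome 4 (111765103 to 111765552, mean 1.21) and chromosome 11 (94346692 to 94347143, mean 0.85). The run on chromosome 4, with 0.94, 0.93, 1.80 and 1.17 in the 4 arrays, missed only through its region mean.

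At the height limit, the lowest array stood at exactly 0.60 in the peaks on chromosome 2 (98710462 to 98710911; 0.64, 0.60, 1.31 and 1.15), chromosome 3 (109501821 to 109502270; 0.73, 1.04, 1.36 and 0.60) and chromosome 3 (171788152 to 171788714; 0.60, 1.12, 1.04 and 0.75). Runs on chromosomes 12 (112395461 to 112396110), 19 (59616346 to 59616996) and 20 (31267518 to 31268379) missed it with 0.598 in array 3, at means of 0.77, 0.93 and 0.79. In 169 of 463 peaks the lowest array lay below 0.65, and 247 low-mean regions lay between 0.55 and the limit. Many regions thus lie close to the limit on either side.

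The 5 probes of a run seldom stood equally high. Their values are those that the rule required to average 0.6 in every array, so the shares below are descriptions that it partly sets. The lowest of the 5 probe means had a median of 0.48 and was 0.3 or more in 353 regions (76.2%), while the highest had a median of 1.26. All 20 values of the run were above 0 in 180 regions (38.9%). With the highest probe left out, the other 4 still averaged 0.3 or more in every array in 456 regions (98.5%) and 0.6 or more in 172 (37.1%). The peak with the lowest such average, singled out after its values were seen, lay on chromosome 19, positions 56000184 to 56000941. There 1 probe averaged 2.95, and the other 4 averaged -0.21 in their lowest array.

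The ratios of an array that took no part in the choice were not used by the rule, although it placed the runs and cores where they are read. When 3 arrays chose the regions by the same rule, 749 to 920 regions met it. The runs then had a median of 0.72 in array 1, 0.60 in array 2, 0.62 in array 3 and 0.57 in array 4, each read where that array was left out (mean of the 4 medians 0.63 ± 0.07, SD). The probes outside the cores read -0.10, -0.11, -0.06 and -0.09, where all runs had medians of -0.02, -0.03, -0.05 and -0.05. In the left-out array, 94.2 to 96.1% of the runs were above 0 and 46.8 to 60.9% reached 0.6, where 45.0 to 47.6% and 5.52 to 9.15% of all runs did. The 4 readings share arrays with one another, and 4 arrays are too few for an exact two-sided sign-flip test to pass 0.05, so no p is given. Effects of a probe's sequence or of the dye that all arrays share would also carry over, and their part in these values was not tested.

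The left-out profile fell to near 0 by 500 bp. At the core centre the mean was 0.70 ± 0.10 log2 (SD over the 4 left-out arrays). It was 0.67 ± 0.10 and 0.66 ± 0.08 at 100 bp on either side, 0.34 ± 0.06 and 0.28 ± 0.05 at 300 bp, and 0.04 ± 0.06 and -0.03 ± 0.06 at 500 bp. From 600 bp outward every mean was below 0, between -0.123 and -0.025. All runs of eligible regions had medians between -0.05 and -0.024 in these arrays, and the limit on the region mean also bears on these levels. Between the array series, regions chosen by arrays 1 and 2 alone numbered 2067 and read a median of 0.48 in arrays 3 and 4, and those chosen by arrays 3 and 4 alone numbered 1617 and read 0.56 in arrays 1 and 2. In both directions over 95% were above 0, where 45.2% of all runs were in arrays 3 and 4 and 47.7% in arrays 1 and 2.

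**Figure D3:**
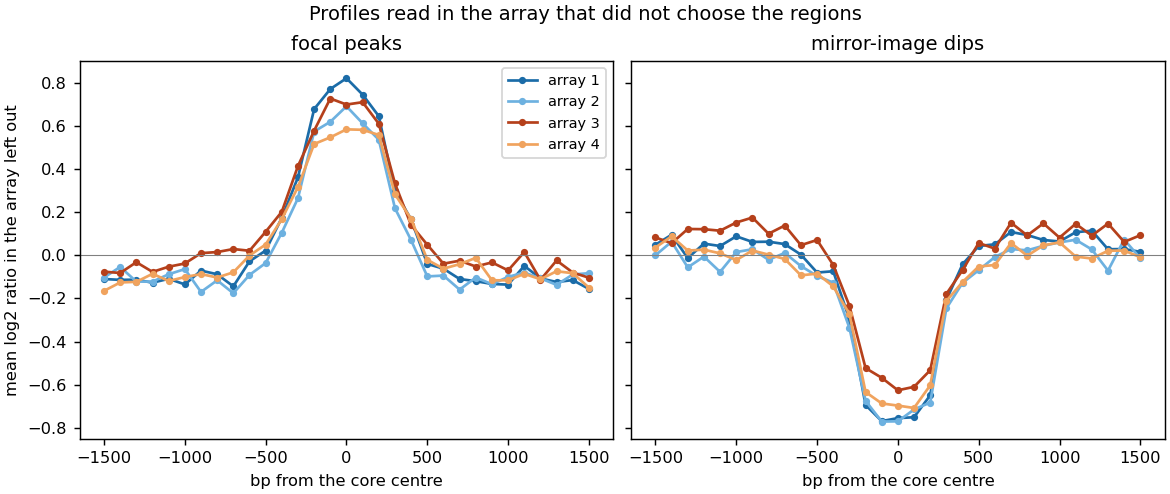
Mean log2 ratio (y axis) in the array that did not choose the regions, in steps of 100 bp from the core centre (x axis, bp), for focal peaks (left) and mirror-image dips (right), 1 line per left-out array. Both shapes carry over to the left-out array and return to near 0 by about 500 bp, and array 4 has the lowest peak.

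Runs of the opposite sign were also found. With the sign of the rule turned, 615 regions (3.8%) held a run at -0.6 or less in every array and a region mean above -0.3. The difference from 463 peaks depended on the centring: with each array centred on its autosomal single-match probes there were 504 peaks and 553 dips, and with each region's own median subtracted 458 and 486. In the main set, the runs of the dips had a median of -0.83 log2 and a median SD of 0.14, and their cores had a median width of 550 bp, and 60.2% of cores were exactly 5 probes. Only 2 dips reached -1.2, against 20 focal peaks at 1.2 or more. Read in a left-out array, dips had medians of -0.72, -0.74, -0.58 and -0.67. Of their runs, 97.0 to 99.8% were below 0, where 52.3 to 54.9% of all runs were. Runs shared by all arrays were thus found on either side of 0. The largest 4-array means were those of peaks, but with 0.8 required in every array there were 61 peaks and 75 dips. The mean of the left-out medians was 0.63 for peaks and -0.68 for dips.

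Within the region, focal peaks were spread over the whole tiled stretch. With each region divided into 5 equal parts from its lower coordinate, 18.6, 23.3, 20.7, 19.4 and 17.9% of the highest runs had their centres in the first to the last part, beside 15.5, 22.8, 23.3, 22.9 and 15.5% of all runs. The distance from the run centre to the nearer end had a median of 726 bp, and 729 bp over all runs. The core held the first or last probe in 105 regions (22.7%), 58 at the lower and 47 at the higher coordinate, so its full width was not seen there. The highest run itself lay at an end in 17.9% of focal peaks, 12.5% of dips and 11.6% of all runs. In the 441 regions that met the run threshold but not the limit on the region mean, the highest run lay there in 16.3%. Their cores held the first or last probe in 23.8%. A raised share at an end was thus not particular to focal peaks. The files give no gene strand, so upstream and downstream could not be told apart.

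**Figure D4:**
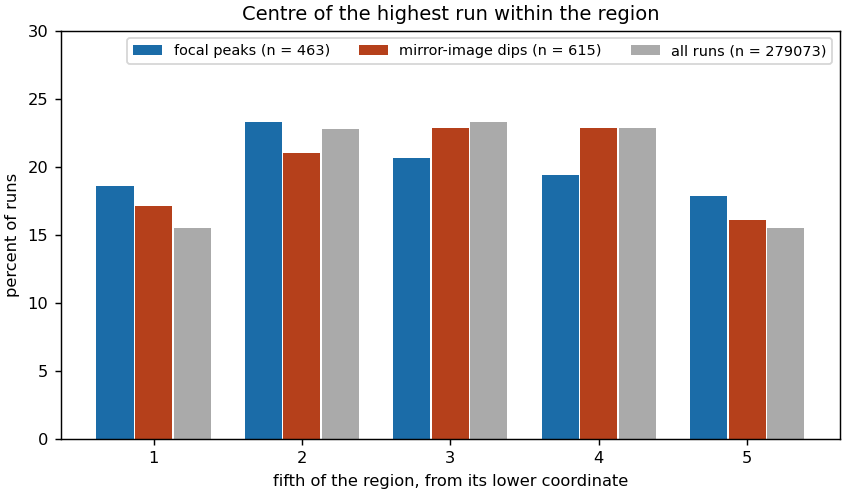
Percent of runs (y axis) with their centre in each of 5 equal parts of the region, counted from its lower coordinate (x axis), for the highest run of 463 focal peaks, of 615 dips and for all 279073 runs of eligible regions. The bars of the focal peaks lie between 17.9 and 23.3%, without a part that holds most of them.

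Design regions of a length other than 2700 bp held focal peaks more often. Of the 463, 361 (78.0%) lay in regions of 2700 bp, the standard length, which made up 88.3% of eligible regions. That is 2.53% of the standard regions and 5.38% of the other 1897. A longer region offers more runs, and per 1000 runs the numbers were 1.56 in standard and 2.15 in other regions. A run also weighs less in the mean of a longer region, so the limit on that mean bears on these numbers. Its part was not tested. Standard regions made up 80.5% of dips, and 87.5% of the 441 regions with such a run and a mean of 0.3 or more. Regions with 2 separate cores numbered 4, and these were 4329 to 5306 bp long. On chromosome 2, the cores from 61097173 to 61097822 and from 61098885 to 61099738 were at 1.10 ± 0.38 and 1.10 ± 0.35. On chromosome 8, those from 104493917 to 104494376 and from 104497617 to 104498169 were at 1.03 ± 0.06 and 1.21 ± 0.32. On chromosome 17, those from 50399024 to 50399684 and from 50402632 to 50403084 were at 1.00 ± 0.15 and 0.71 ± 0.13. On chromosome 11, those from 71577454 to 71578003 and from 71579454 to 71579903 were at 0.96 ± 0.35 and 0.74 ± 0.09.

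Probe length served as the only trace of base composition in the files, since tiling designs of even melting temperature use longer probes where DNA is AT-rich. Probes in the cores averaged 52.83 bases and those outside 52.32, a median difference within a region of 0.19 bases. The core probes were longer in 248 regions (53.6%), shorter in 204 (44.1%) and equal in 11. In the 15703 other regions, the highest run, and not a core, was compared with the rest. It was longer in 39.9% and shorter in 52.3%, with a median difference of -0.11 bases. The highest run of the focal peaks had a median difference of 0.15 bases. Dips had longer core probes in 50.7% of regions. The highest run consisted of 50-base probes alone in 18.6% of focal peaks, 12.5% of those 441 regions and 30.9% of dips. The share was 41.1% over all runs and 33.6% over the runs of the focal-peak regions themselves. A low share was thus not particular to focal peaks. Probe length also moved with the ratio by array. Probes of 61 to 74 bases averaged -0.10, -0.11, 0.19 and -0.02 log2 in arrays 1 to 4, and 50-base probes averaged 0.05, 0.07, -0.04 and -0.03. After the mean of each probe length was subtracted from each array, 517 regions met the rule, and 392 of the 463 focal peaks were among them.

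Across chromosomes, focal peaks made up between 1.34 and 5.74% of the eligible regions. The shares were highest on chromosome 13 (17 of 296 regions, 5.74%), chromosome 15 (25 of 502, 4.98%), chromosome 5 (35 of 764, 4.58%) and chromosome 6 (37 of 916, 4.04%). They were lowest on chromosome 16 (9 of 671, 1.34%), chromosome 22 (6 of 386, 1.55%), chromosome 21 (4 of 227, 1.76%) and chromosome 19 (19 of 1070, 1.78%). Chromosome 13 was also high in dips (6.08%), and chromosome 19 was low in them (2.06%). Peaks outnumbered dips on chromosomes 6 (37 against 30), 12 (25 against 12), 15 (25 against 18) and 20 (16 against 7), and the counts were equal on chromosome 5. Dips outnumbered peaks on the other 17, among them chromosome 2 (59 against 25) and chromosome 16 (28 against 9). Counts by chromosome are descriptions, as neighbouring regions are not independent.

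**Figure D5:**
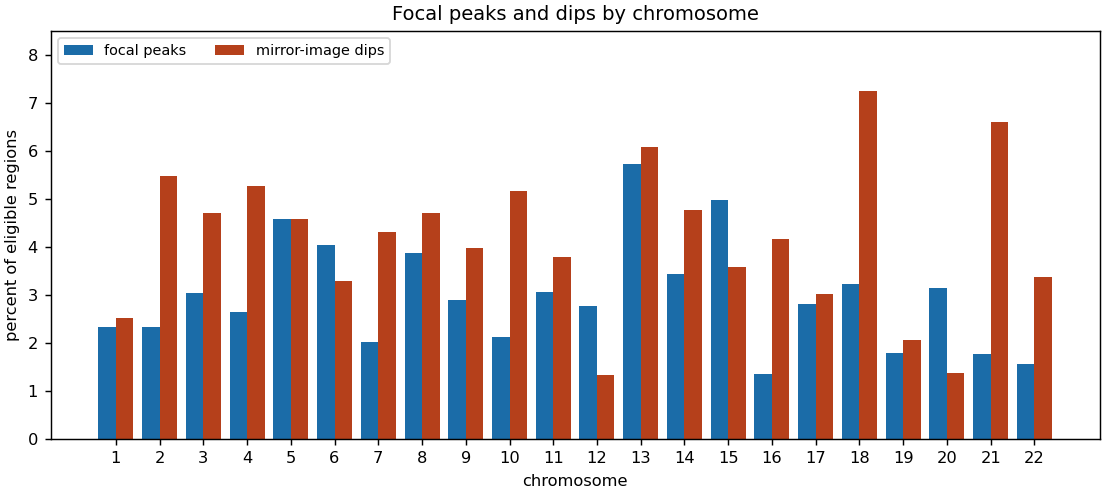
Percent of eligible regions (y axis) that are focal peaks or dips on chromosomes 1 to 22 (x axis). Chromosome 13 has the highest share of peaks (5.74%) and chromosome 16 the lowest (1.34%).

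Distances between focal peaks were measured from core centre to core centre. The median distance to the nearest other peak on the same chromosome was 1537355 bp, and 176 of 463 peaks (38.0%) had another within 1 Mb, 34 (7.34%) within 100 kb and 2 within 10 kb. For the 615 dips, the median distance to the nearest other dip was 1113974 bp, and 285 (46.3%), 59 (9.59%) and 14 had another within these limits. The spacing follows in part from how many regions each set holds. The closest pair of peaks had centres 2372 bp apart on chromosome 14, with cores from 19867976 to 19869333 (1.01 ± 0.30) and from 19870797 to 19871256 (0.90 ± 0.21). On chromosome 6, cores from 27389384 to 27390137 (1.01 ± 0.39) and from 27400456 to 27401012 (1.09 ± 0.44) had centres 10974 bp apart. On chromosome 15, cores from 88024895 to 88025444 (0.71 ± 0.10) and from 88036031 to 88036580 (0.89 ± 0.36) had centres 11136 bp apart.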

How the data were processed

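The data are 4 tiled-region ChIP-chip arrays of anti-HA precipitates. The authors deposited, per the file headers, NimbleScan ratios of the 635 nm over the 532 nm signal of each probe, and per the labels the first is induced and the second uninduced. The deposited values lie on a log scale and are treated as log2, although no file states the base. Each header gives a biweight mean, and the deposited medians lay between -0.01 and 0.00. The software version, the genome build and whether background was subtracted are not given in the sources at hand. Only ratios were read, and the number of arrays limits the precision.

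Each array was centred on its median over all probes. Single-match probes were ordered by start within each region as the files name it. Runs of 5 probes were scanned with Python 3.11.15 and numpy 2.4.6, with a tolerance of 1e-09 at the limits. The scan was tested on simulated data. No array repeats another: 0.55 to 0.73% of probes had equal values in any pair. The regions and measures were chosen with earlier results of these data known. Named regions are the 12 highest, the 4 widest, the 4 with the lowest region mean, the 4 with the smallest SD, those with 2 cores, 3 on either side of each limit, and the 3 closest pairs.

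Alternatives were other centring and scaling, other run lengths and limits, medians over probes, gaps, all probes, a correction for probe length, subtraction of the region median, and leaving out each array. The array series alone, and a condition on the 4 probes left after the highest, were chosen after seeing the data. Genes and sequences at the peaks were not analysed here, for want of a genome of the build.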

Additional observations from a re-analysis of the deposited data

Results flagged for a closer look

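The 4 array values of 34 named peaks, and the 4 left-out medians, were screened for a single far array with Dixon's 95% critical value. It was exceeded in 3 of 35 cases. The critical value is meant to flag about 1 in 20, but 34 of the cases are values that the choice of regions cut off at 0.6, so that rate does not hold here and the cases are a description. All 3 are high arrays, the side the limit leaves free. The core that starts at 177488533 on chromosome 5 had 1.006 log2 in array 2, beside 0.716 to 0.744 elsewhere. The core that starts at 104497617 on chromosome 8 had 1.68 in array 1, beside 1.03 to 1.068. The core that starts at 71577454 on chromosome 11 had 1.478 in array 2, beside 0.722 to 0.828.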

How the results depend on the processing

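The count of 463 focal peaks was between 380 and 658 under other centring, scaling, quantile normalization, the gap limit, all probes, the probe-length correction, at least 20 probes, the region-median subtraction and a region limit of 0.4, and dips stayed within 486 to 830. The gap between them narrowed to 504 and 553 with autosomal single-match centring, and to 458 and 486 with the region median subtracted. Members changed more than the count: after the region median was subtracted, 458 regions met the rule and 159 of them (34.7%) were among the 463. Counts of peaks and dips were 829 and 1203 with runs of 4 probes, 139 and 184 with runs of 7, 1040 and 1546 at a limit of 0.5, 61 and 75 at 0.8, and 283 and 373 at a region limit of 0.2. With the 0.6 limit on the mean over arrays only, they were 3035 and 2911, the only setting run for both with more peaks than dips. Medians over the 5 probes gave 701 peaks, of which 344 were among the 463. Leaving out each array gave 749 to 920 peaks, where fewer arrays must agree. Arrays 1 and 2 alone gave 2067 peaks and 2323 dips, and arrays 3 and 4 alone 1617 and 1819. Requiring the 4 probes left after the highest to reach 0.6 as well kept 172. The median width was 760 bp with runs of 7 probes, 450 bp at 0.5 of the height and 552 to 650 bp with an array left out, widest without array 2. The left-out height was 0.569 to 0.72 over the 4 arrays, 0.481 when chosen by arrays 1 and 2 and 0.56 when chosen by arrays 3 and 4. After the region median was subtracted, 6 of the 34 named peaks moved by more than 1.5 times, to between 0.368 and 0.602: chromosome 5 from 177488533 (0.368), chromosome 2 from 172458479 (0.534), chromosome 11 from 303652 (0.536), chromosome 19 from 10074625 (0.545), chromosome 11 from 71577454 (0.597) and chromosome 2 from 98710462 (0.602). Leaving out an array changed none of these 34 heights by over 1.5 times. The runs were not chosen again and every array reached 0.6 by the rule, so a larger change was hardly possible. The closest pairs, the second cores and the chromosome 19 peak from 56000184 were not rerun. Where no fewer arrays or probes were used, the cause was not tested. Each ratio already sets an induced against an uninduced sample on the same array, so no further pairing was made. Signal over background was not analysed here.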
